A study of Mus musculus with 8 samples.

Results

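Immediate early genes are transcribed within minutes of synaptic input, before any new protein is made, and Fos protein is the usual mark of a recently active neuron. The 10 genes described here are Fos, Fosb, Fosl2, Jun, Junb, Egr1, Arc, Npas4, Nr4a1 and Ier2, which were chosen by name out of the 18939 genes of the count table. Each of the 10 had 1 row in the table, and all 10 were tested. The Fos and Jun proteins pair through a leucine zipper to form the transcription factor AP-1, Egr1, Npas4 and Nr4a1 are transcription factors of other families, Arc is a cytoskeletal protein that helps remove AMPA receptors from synapses, and Ier2 is a small nuclear protein. Calcium entry and cAMP raise several of these genes through CREB and SRF, which are already bound to or near their promoters in resting cells.

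The RNA came from translating ribosome affinity purification (TRAP), in which ribosomes tagged with EGFP-L10a are pulled down with antibodies to GFP. All mice were OPRM1cre X EGFP-L10a, on a C57Bl/6J background and young adult, so that the tag was switched on in cells in which Cre, driven from the mu-opioid receptor gene Oprm1, had been active at any time. The control group (control drinking water in the labels) drank 0.2% saccharin by the study's methods, and the morphine group drank the same solution with morphine, raised stepwise to 0.5 mg/ml, both over 11 days. Each group had 4 libraries, 2 labelled male and 2 labelled female (control replicates 1, 2, 5 and 6 and morphine replicates 3, 4, 7 and 8), and each library pooled 2 gross dissections aimed at the paraventricular nucleus of the thalamus (PVT), taken around midday, in the light period.

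Total counts per library lay between 31151103 and 47582947. The 10 genes had between 137 and 11646 counts in a library. Of 10 marker genes of the PVT and midline thalamus, all were detected, with summed CPM (counts scaled to a common library size with TMM factors) of 1907 to 2423 in the control libraries and 1423 to 2541 in the morphine libraries. The groups overlapped, the median log2 fold change of these markers was -0.22, only 1 lay above 0, and edgeR called none. Other cells were present as well. For telencephalic pyramidal neurons, 13 markers summed to 396 to 991 CPM in the control and 1060 to 2255 CPM in the morphine libraries, and all 13 had a log2 fold change above 0, of which edgeR called 2, the only calls among the marker lists. The sum of 13 choroid plexus markers was 37.0 to 112 in the control and 130 to 401 in the morphine libraries, with 12 of 13 above 0. For both lists the morphine libraries lay above the control libraries, and no marker of either was absent. All 10 oligodendrocyte markers had a log2 fold change above 0 as well (median 0.62), with overlapping sums of 126 to 1276 CPM in the control and 595 to 1578 CPM in the morphine libraries, and 8 of 10 astrocyte (median 0.37) and 8 of 10 medial habenula markers (median 0.35) lay above 0. Fewer lay above 0 among the markers of GABAergic neurons (4 of 10, median -0.16), microglia (3 of 10, median -0.095) and endothelial cells (4 of 10, median -0.18). Control replicate 5, labelled female, had 33.8% of the males' mean CPM of 4 Y-linked genes, against at most 0.0443% in the other female libraries. In such a pool, fewer active cells and less of a transcript in each cell cannot be told apart.

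The genes lie on 8 chromosomes, and RefSeq lists no other gene overlapping any of them on GRCm38.p6. The sequences just upstream of the start sites are shown for the 2 members with the largest differences, Fos and Npas4, beside Fosb and Jun, relatives of Fos that did not pass the test. Each run is the 250 bases before the RefSeq start site, 5′ to 3′ on the strand of the gene, from RefSeq on GRCm38.p6. Capitals mark TGACG on either strand (CGTCA when it lies on the other strand), the core of the cAMP response element that CREB binds.

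Fos (chr12:85473640-85473889, plus strand): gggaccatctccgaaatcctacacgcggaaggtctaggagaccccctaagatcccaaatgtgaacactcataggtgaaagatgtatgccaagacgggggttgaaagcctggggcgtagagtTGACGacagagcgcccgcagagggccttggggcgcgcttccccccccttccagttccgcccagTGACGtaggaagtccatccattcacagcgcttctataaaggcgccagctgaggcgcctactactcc
Npas4 (chr19:4989972-4990221, minus strand): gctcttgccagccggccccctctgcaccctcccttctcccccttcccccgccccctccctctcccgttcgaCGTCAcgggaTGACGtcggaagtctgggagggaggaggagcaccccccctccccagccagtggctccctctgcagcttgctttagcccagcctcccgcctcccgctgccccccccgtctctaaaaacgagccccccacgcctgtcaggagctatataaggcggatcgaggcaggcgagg
Fosb (chr7:19310046-19310295, minus strand): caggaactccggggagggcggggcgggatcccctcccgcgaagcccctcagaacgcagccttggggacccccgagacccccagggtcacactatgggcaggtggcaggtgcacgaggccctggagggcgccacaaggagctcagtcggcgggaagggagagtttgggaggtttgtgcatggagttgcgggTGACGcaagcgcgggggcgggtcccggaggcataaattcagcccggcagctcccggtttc
Jun (chr4:95052223-95052472, minus strand): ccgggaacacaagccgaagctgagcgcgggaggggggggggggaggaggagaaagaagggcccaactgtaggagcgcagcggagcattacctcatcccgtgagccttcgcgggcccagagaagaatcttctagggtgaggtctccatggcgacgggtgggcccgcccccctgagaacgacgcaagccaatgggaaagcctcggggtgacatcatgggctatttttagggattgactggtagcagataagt

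RefSeq promoters, here the 250 bases before and the 50 bases after the start site, were at hand for 7 of the 10 genes (Fos, Fosb, Fosl2, Jun, Junb, Npas4 and Nr4a1). TGACG was found on either strand in Fos, Fosb, Junb, Npas4 and Nr4a1, and it is found in 20.8% of all 32851 promoters of this length. Fos had 2 copies, whose first bases lay 129 and 66 bases before the start, and Npas4 had 2, at 179 and 169 bases, on opposite strands. Nr4a1 had 4 copies, and Fosl2 and Jun had 0. The whole element TGACGTCA (1.79% of all promoters), the CArG box of SRF (1.63%) and the AP-1 site TGANTCA (7.81%) were found in 0 of the 7. These matches describe letters in a window and do not locate a bound factor. Sites farther from the start, and any in Egr1, Arc and Ier2, were not looked for.

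Levels between genes were compared per length, as CPM per kilobase of the listed transcript. Egr1, a zinc finger transcription factor, had the highest level in the control group, a mean of 74.7 CPM per kilobase (64.7 to 94.4), followed by Fos with 42.6 ± 5.01 (SD, n = 4). The lowest control library of Egr1 (64.7) lay above the highest of Fos (45.8), and the lowest of Fos (35.2) lay above the highest of Nr4a1 (30.8). Fos and Arc overlapped, since the highest control library of Arc had 41.0. Below these came Nr4a1 (24.2 ± 7.26), Arc (19.9 ± 14.4), Junb (16.7 ± 3.60) and Jun (16.1 ± 2.13), whose ranges overlapped from one to the next. Fosl2 (6.21 ± 3.23), Ier2 (5.04 ± 0.520), Fosb (4.97 ± 1.88) and Npas4 (4.13 ± 1.34) were lowest and overlapped each other. In the morphine group, Fos had 22.2 ± 2.85 CPM per kilobase, within the range of Nr4a1 (16.2 to 51.7), Arc (10.2 to 36.8) and Junb (10.7 to 26.1).

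Fos fell with morphine. Fos (chromosome 12, 85473890 to 85477274) had 96.6, 94.7, 74.1 and 94.1 CPM in control replicates 1, 2, 5 and 6. It had 52.4, 50.6, 45.4 and 39.0 CPM in morphine replicates 3, 4, 7 and 8. Every morphine library lay below every control library, also below control replicate 5, which stood apart from the other 3. The log2 fold change was -0.94 (standard error 0.12, edgeR's quasi-likelihood test, adjusted P = 0.0176), which is a level 47.9% lower, and only 7 of the 18939 genes had a lower P value. The exact two-sided permutation test gave P = 0.0286, and groups of 4 cannot give less. The size of the fall depended little on any 1 library, since the log2 fold change lay between -1.04 (without control replicate 5) and -0.86 (without morphine replicate 8). The call was less firm. The adjusted P value rose to 0.0621 without control replicate 1, 0.0905 without morphine replicate 4, 0.0550 without morphine replicate 7 and 0.0602 without morphine replicate 8. From edgeR with a marker score in the model, described further on, it was 0.783 for telencephalic and 1.00 for choroid plexus markers.

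Npas4, a neuron-restricted transcription factor that responds to calcium entry and shapes inhibitory synapses, was the member with the lowest fold change. Its counts were 784, 663, 355 and 603 in control replicates 1, 2, 5 and 6 and 137, 281, 285 and 234 in morphine replicates 3, 4, 7 and 8. As CPM this was 20.1, 14.9, 8.49 and 16.4 in the control libraries and 3.85, 8.51, 9.25 and 4.81 in the morphine libraries. The groups overlapped only because control replicate 5 lay just below morphine replicates 4 and 7. The log2 fold change was -1.18 with a standard error of 0.31 (95% interval -1.86 to -0.51), and the unadjusted edgeR P value of 0.00261 became 0.152 after adjustment over all genes. DESeq2, the tool of the study's methods, called Npas4 (log2 fold change -1.18, adjusted P = 0.00945) as it did Fos (adjusted P = 9.50e-09). Without control replicate 5 the log2 fold change from edgeR was -1.40 and the adjusted P value 0.0910, and over all fits without 1 library it lay between -1.41 (without morphine replicate 7) and -0.998 (without morphine replicate 3).

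**Figure D1:**
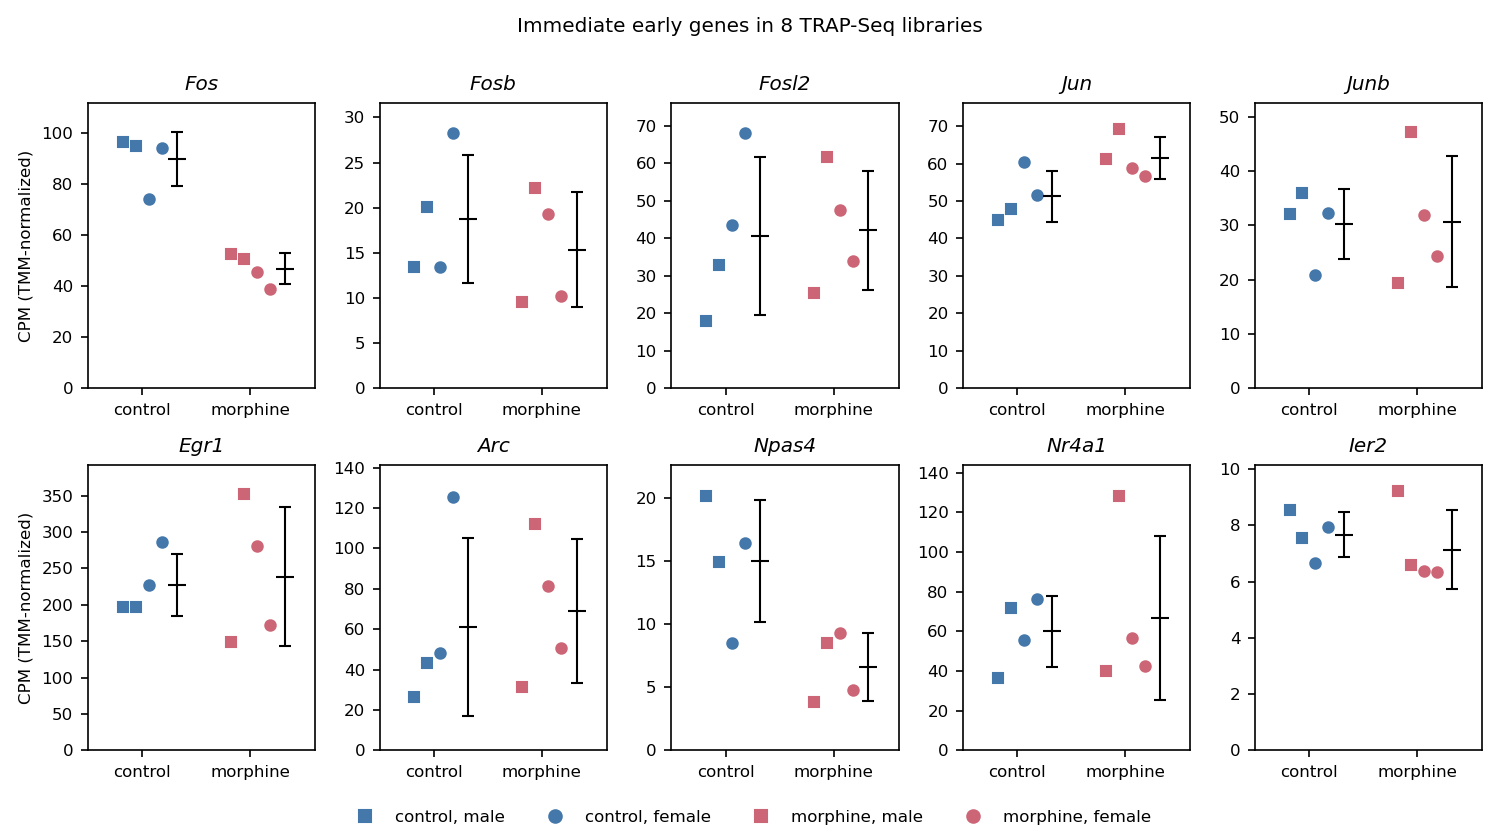
CPM (vertical axes, each from 0) of the 10 genes in the 4 control (blue) and 4 morphine (red) libraries, squares male and circles female by the labels, with the group mean ± SD in black. Fos shows no overlap between the groups, Npas4 overlaps only through 1 low control library, and the other 8 genes overlap.

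Among the relatives of Fos, Fosb, whose truncated product ΔFosB builds up with repeated drug exposure, had 13.4, 20.1, 13.4 and 28.3 CPM in control replicates 1, 2, 5 and 6 and 9.58, 22.2, 19.3 and 10.2 CPM in morphine replicates 3, 4, 7 and 8. The groups overlapped, with 2 morphine libraries below every control and 1 control above every morphine library, and the log2 fold change was -0.30 (95% interval -0.98 to 0.38, edgeR adjusted P = 0.708). The table has a single Fosb transcript, so the splice form of ΔFosB was not told apart. Fosl2 encodes Fra-2, a Fos-related protein without a strong activation domain. It had 17.8, 32.8, 43.6 and 68.0 CPM in the control and 25.5, 61.7, 47.7 and 34.0 CPM in the morphine libraries. The spread within each group was much larger than the difference between them (log2 fold change 0.056, 95% interval -0.73 to 0.84, edgeR adjusted P = 0.973).

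Jun encodes the main partner of Fos in AP-1. It had 44.8, 47.9, 60.5 and 51.7 CPM in control replicates 1, 2, 5 and 6 and 61.1, 69.3, 58.9 and 56.6 CPM in morphine replicates 3, 4, 7 and 8. Of the members it had the highest log2 fold change, 0.26 with a standard error of 0.11 (95% interval 0.016 to 0.51), and the groups overlapped through control replicate 5. The unadjusted edgeR P value was 0.0391 and the adjusted one 0.379. Junb, a partner that restrains Jun at many promoters, had 32.05, 36.0, 20.9 and 32.2 CPM in control replicates 1, 2, 5 and 6 and 19.4, 47.3, 31.9 and 24.3 CPM in morphine replicates 3, 4, 7 and 8. Its group means were nearly equal (log2 fold change 0.020, 95% interval -0.53 to 0.57, edgeR adjusted P = 0.987), and the 2 lowest libraries came from different groups.

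The other transcription factors showed the same wide spread. Egr1 had 197, 196, 227 and 287 CPM in control replicates 1, 2, 5 and 6 and 149, 353, 280 and 173 CPM in morphine replicates 3, 4, 7 and 8. The morphine libraries lay both below and above all of the controls, and the log2 fold change was 0.074 (95% interval -0.46 to 0.61, edgeR adjusted P = 0.927). Nr4a1 encodes the orphan nuclear receptor Nur77. It had 36.7, 71.7, 55.4 and 76.4 CPM in the control and 40.2, 128, 56.5 and 42.7 CPM in the morphine libraries, where morphine replicate 4 was more than 2-fold above the rest (log2 fold change 0.15, 95% interval -0.61 to 0.92, edgeR adjusted P = 0.887).

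Arc, whose RNA travels to dendrites, had 26.5, 43.3, 48.4 and 125 CPM in control replicates 1, 2, 5 and 6 and 31.2, 112, 81.6 and 50.5 CPM in morphine replicates 3, 4, 7 and 8. It had the widest range of the members in each group, 4.73-fold among the controls and 3.60-fold among the morphine libraries. The log2 fold change of Arc was 0.18 (95% interval -0.83 to 1.19, edgeR adjusted P = 0.902). Ier2 was the most even of them in the control group, with 8.54, 7.56, 6.65 and 7.93 CPM in the control and 9.22, 6.60, 6.36 and 6.35 CPM in the morphine libraries. Of the morphine libraries, 3 lay below every control and morphine replicate 3 above all (log2 fold change -0.10, 95% interval -0.46 to 0.25, edgeR adjusted P = 0.83).

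Counted together, 1 of the 10 members was called by edgeR at an adjusted P value under 0.05, and it was lower with morphine. Of all genes tested, 0.195% were called and 0.0317% were called and lower. Before adjustment, 3 of the 10 members had a P value under 0.05 (12.1% of all genes), of which 2, Fos and Npas4, were lower with morphine (5.31% of all genes). Separate groups were seen for 1 of the 10, lower with morphine (3.21% of all genes were separate and lower, 6.54% separate in either direction). DESeq2 called 2 of the 10, against 3.29% of the genes it gave an adjusted P value. Of the members, 4 had a log2 fold change below 0 and 6 above 0, with a median of 0.038 against 0.0088 over all genes. This split rested on single libraries, since 9 of the 10 lay below 0 without morphine replicate 4, and 7 without control replicate 1 or morphine replicate 7.

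To set Fos against its relatives, the ratio of Fos CPM to the CPM of each of the 9 other members was taken within each library, which removes differences in library size. The ratio was lower in the morphine group for 8 of the 9 members, but the groups were separate for only 2 of them. The median log2 fold change over all genes was 0.0088, so the fall of Fos alone lowers its ratio to most genes. The count of lower ratios therefore says little about the relatives. For Jun, the ratio was 2.15, 1.98, 1.22 and 1.82 in control replicates 1, 2, 5 and 6 and 0.858, 0.730, 0.771 and 0.690 in morphine replicates 3, 4, 7 and 8. The groups were separate, with a difference of -1.20 on the log2 scale (0.5 CPM added to both, exact two-sided permutation test, P = 0.0286). These ratios are not corrected for length, and per kilobase the mean level of Fos stayed above that of Jun with morphine (22.2 against 19.3 CPM per kilobase). For Ier2, the ratio was 11.2 to 12.5 in the control and 5.69 to 7.67 with morphine, and the log2 ratios differed by -0.82 (exact permutation test, P = 0.0286). Its SD on the log2 scale was 0.077 in the control group, the lowest of the 9 ratios there, and 0.19 in the morphine group, where that of Jun was lower (0.13). These are the smallest P values that 4 libraries against 4 allow, and 9 ratios that all contain Fos were tested without adjustment. For Jun, the exact permutation P value was 0.0571 without morphine replicate 4 or without morphine replicate 8, with differences of -1.18 and -1.15.

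For the other transcription factors and Arc, the lower mean ratio of Fos came with overlap of the groups. The differences in log2 ratio were -0.90 for Junb and -0.97 for Nr4a1 (exact permutation P = 0.0571 for both), -0.94 for Egr1 and -1.07 for Fosl2 (exact permutation P = 0.0857 for both), -1.19 for Arc (exact permutation P = 0.143) and -0.62 for Fosb (exact permutation P = 0.171). Without morphine replicate 3, whose levels of Junb, Egr1, Nr4a1 and Fosl2 were the lowest of its group, those 4 ratios were separate (-1.15, -1.19 and -1.22 with exact permutation P = 0.0286, and -1.34 with P = 0.0571 for Fosl2). That library alone made the overlap, so leaving it out favoured separation. Without morphine replicate 4 the same differences shrank to -0.71, -0.76, -0.65 and -0.90 (exact permutation P = 0.0571, 0.114, 0.143 and 0.171). Npas4 was the exception. The ratio of Fos to Npas4 was 4.81, 6.34, 8.73 and 5.75 in control replicates 1, 2, 5 and 6 and 13.6, 5.95, 4.90 and 8.11 in morphine replicates 3, 4, 7 and 8. The groups overlapped widely (difference 0.21 in log2 ratio, exact permutation P = 0.6), and the sign turned when morphine replicate 3 was left out (-0.057).

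**Figure D2:**
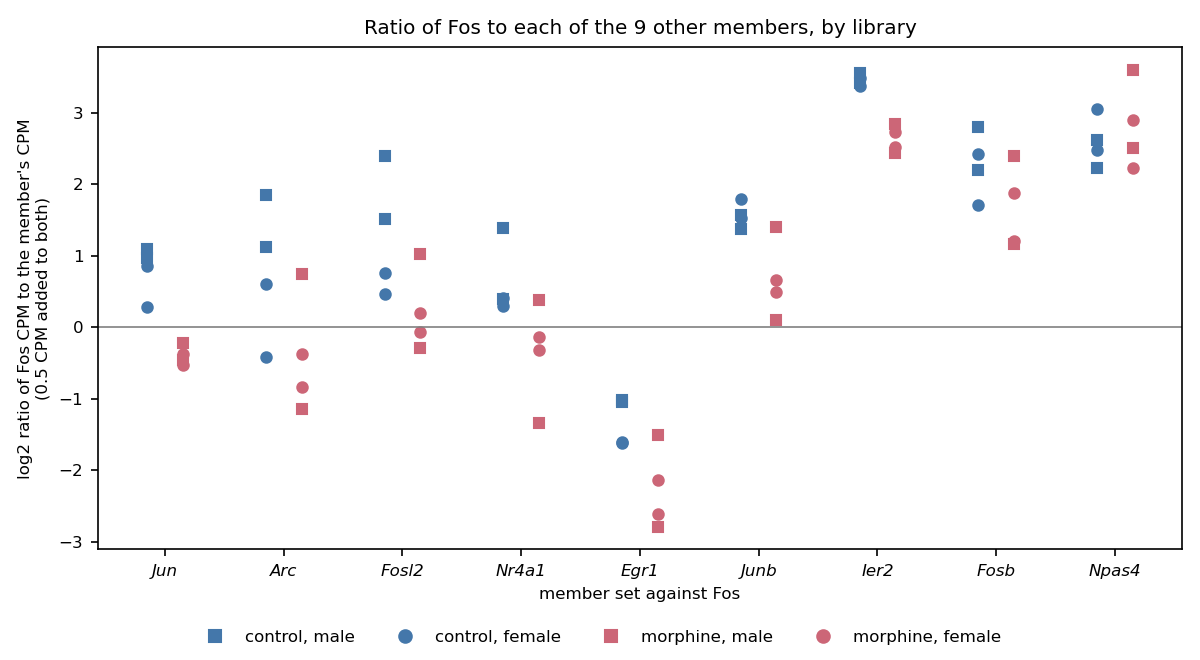
Log2 ratio of Fos CPM to the CPM of each of the 9 other members (vertical axis, 0.5 CPM added to both) in the 4 control (blue) and 4 morphine (red) libraries, squares male and circles female by the labels, ordered by the difference between the groups. The groups are separate for Jun (difference -1.20) and Ier2 (-0.82), and for Npas4, at the right, they overlap widely.

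Fos was steady within each group while most of its relatives were not. The coefficient of variation of Fos was 11.7% in the control and 12.8% in the morphine group, and that of Jun was 13.3% and 9.04%. For Arc it was 72.2% and 51.7%, for Fosl2 52.1% and 37.6%, and for Nr4a1 29.9% and 62.0%. On edgeR's scale, the biological coefficient of variation was at or above 0.25 in 7 of the 10 members (Fosb, Fosl2, Junb, Egr1, Arc, Npas4 and Nr4a1), a threshold chosen after the values had been seen. Of the 10079 genes with a mean CPM from 5 to 300, which is the range of the members, 6.06% reached it, and their median was 0.143, near the 0.137 of Fos.

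The spread was shared among members, in that the same libraries were high or low. Control replicate 6 was the highest control library for Fosb, Fosl2, Egr1, Arc and Nr4a1. Morphine replicate 4 was the highest morphine library for 7 members, which were these 5 and Jun and Junb, and morphine replicate 3 was the lowest for 7. Fos and Ier2 went another way, with their highest morphine value in replicate 3. The telencephalic marker level was high or low in some of the same libraries, but not in all. Its mean log2(CPM + 0.5) reached 4.79 in control replicate 6, against 3.22, 3.39 and 3.4045 in control replicates 1, 2 and 5, and within the morphine group it was highest in replicate 4 (5.62) and lowest in replicate 3 (4.56). Morphine replicate 8 went the other way, with the second highest marker level (5.41) and a low summed CPM of the 10 members, 441 against 859 in replicate 4 and 637 in replicate 7. The GABAergic marker level was low in both morphine replicates with low members, at 4.47 in replicate 3 and 4.42 in replicate 8, against 5.33 in replicates 4 and 7. Among the controls the match was looser. The GABAergic level was 5.30 in replicate 6 and 5.26 in replicate 2, with summed CPM of the members of 787 and 565. It was lowest in replicate 5 (4.65, members 559), against 4.98 in replicate 1 (members 493).

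With the telencephalic marker score added to the edgeR model, the fold changes of the members moved apart by gene. Fos stayed at -0.92 (standard error 0.21) and Jun at 0.20 (standard error 0.21). Arc went from 0.18 to -1.70 (standard error 0.37), Fosl2 from 0.056 to -1.26 (standard error 0.41), Fosb from -0.30 to -1.36 (standard error 0.40) and Npas4 from -1.18 to -1.64 (standard error 0.55). Nr4a1 went from 0.15 to -0.88 (standard error 0.58), Egr1 from 0.074 to -0.73 (standard error 0.37) and Junb from 0.020 to -0.52 (standard error 0.46). In this model 8 of the 10 members had a log2 fold change below 0, with a median of -0.90 (47.2% of all genes below 0, median 0.026). An unadjusted P value under 0.05 was obtained for 5 of them, Fos, Fosb, Fosl2, Arc and Npas4, and for 6.18% of all genes. None of the 10 was called after adjustment over all genes (adjusted P = 0.746 to 0.988 from edgeR), and 0.00528% of all genes were. With the choroid plexus marker score in its place, 8 of 10 were again below 0 (median -0.78, against 51.9% of all genes below 0 and a median of -0.014), Fos was at -0.86 (standard error 0.20) and Arc at -1.01 (standard error 0.51), and 1 member, Fos, had an unadjusted P value under 0.05, as did 3.56% of all genes, with 0% called. The telencephalic score of the groups overlapped only through control replicate 6 and morphine replicate 3, so such a fit leans on few libraries. The choroid plexus score did not overlap at all, from 1.68 in control replicate 6, the highest control, to 1.73 in morphine replicate 3, the lowest morphine library. That fit can therefore hardly tell the score from the condition. Whether the other cells in the dissection took part in any difference between the groups was not tested.

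**Figure D3:**
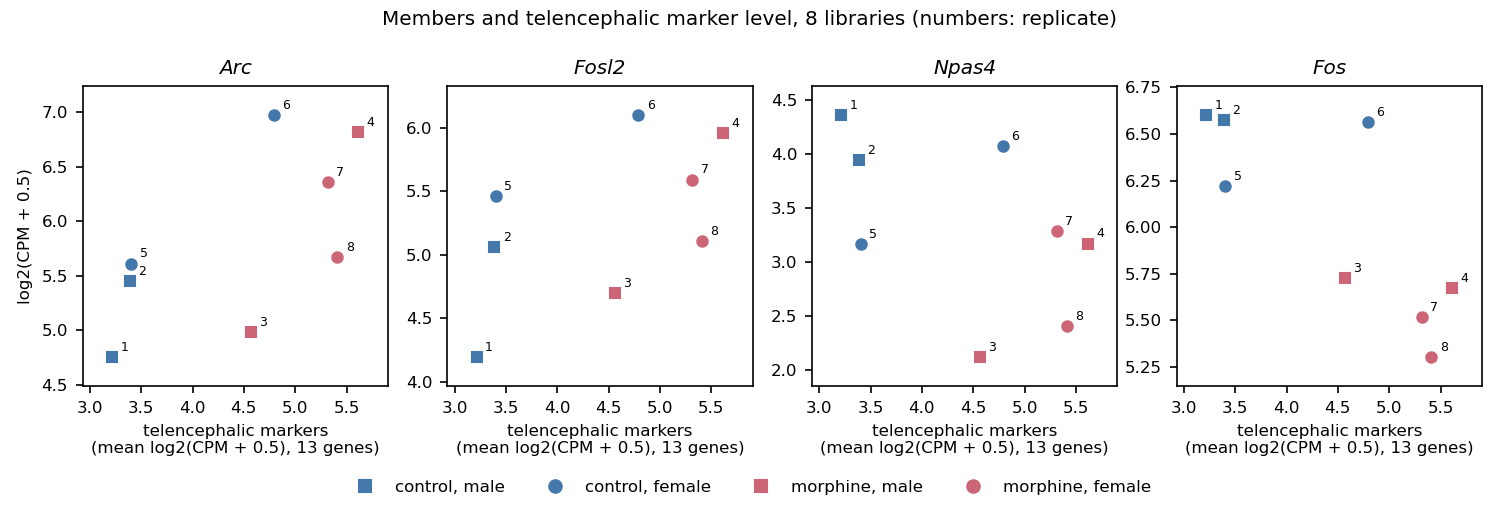
Log2(CPM + 0.5) of Arc, Fosl2, Npas4 and Fos (vertical axes) against the mean log2(CPM + 0.5) of 13 telencephalic marker genes (horizontal axes) in the 4 control (blue) and 4 morphine (red) libraries, numbered by replicate, squares male and circles female by the labels. Control replicate 6 and morphine replicate 4 are high on both axes for Arc and Fosl2, while the level of Fos is split by group.

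The difference in Fos had the same sign in both sexes as labelled, with 2 libraries a group and no test within a sex. Control replicate 5, used here as female, had 33.8% of the males' mean CPM of Y-linked genes. On the log2(CPM + 0.5) scale, the mean of the 2 male morphine libraries lay below that of the 2 male controls by -0.89, and the difference in females was -0.98. Npas4 was lower in both as well, by -1.51 in males and -0.77 in females. The mean difference had opposite signs for 5 members, which were Fosl2 (0.70 in males, -0.43 in females), Arc (0.80 and -0.28), Nr4a1 (0.48 and -0.40), Egr1 (0.22 and -0.21) and, the other way round, Junb (-0.16 and 0.10). Control replicate 6 (female) and morphine replicate 4 (male) were the highest of their groups for Fosl2, Arc, Nr4a1 and Egr1. For Junb the highest control was replicate 2. The cause of the opposite signs was not tested. The interaction of sex and condition had an unadjusted edgeR P value of 0.0450 for Fosl2 and above 0.05 for the other 9 members, and none was called after adjustment (edgeR called 0% of all genes, 325 genes had P under 0.05 before adjustment, and the count from DESeq2 was 4). Between female and male libraries, with condition in the model, edgeR called 0 of the 10 members, and 0.00528% of all genes. The female libraries had a lower mean of Fos (-0.24 on the log2 scale with a standard error of 0.11, 95% interval -0.47 to -0.0014). The edgeR P value for Fos was 0.0488 before adjustment, where 587 genes had P under 0.05, and 1.00 after it. In each group every female library lay below every male library. The gap was small for control replicate 6 (94.1 against 94.7 CPM in control replicate 2), and control replicate 5 was the lowest control.

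Other genes that follow neuronal activity were described by lists written by name. Of 10 other AP-1 genes and bZIP partners, such as Jund, Atf3 and Crem, 0 had an unadjusted edgeR P value under 0.05, against 12.1% of all genes. Of these 10, 5 lay above and 5 below 0. The 4 with the lowest P value were Mafk, Crem, Batf3 and Atf3. Mafk, a small Maf protein, had 19.8 ± 2.26 CPM in the control and 16.6 ± 1.36 CPM in the morphine group (SD, n = 4; log2 fold change -0.26, edgeR adjusted P = 0.413), and Crem, which gives rise to the cAMP-induced repressor ICER, had 16.7 ± 1.87 and 14.8 ± 0.904 CPM (adjusted P = 0.588). Batf3 had at most 9 counts in a library and Atf3 a mean below 1 CPM in each group. Jund, which is made all the time in most cells, had 128 CPM in the control and 138 CPM in the morphine group.

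The 36 other rapid immediate early genes had none called by edgeR, and 9 had an unadjusted P value under 0.05, 5 higher and 4 lower with morphine. This is 25% of the list, against 12.1% of all genes, and 2 of the 36 did not overlap between the groups, against 6.54% of all genes. Their median log2 fold change was 0.053. Sik1, a kinase induced by cAMP that switches off CREB co-activators, had 75.2, 81.1, 71.7 and 110 CPM in control replicates 1, 2, 5 and 6 and 55.1, 62.8, 68.3 and 52.1 CPM in morphine replicates 3, 4, 7 and 8. Its groups did not overlap (log2 fold change -0.50, standard error 0.14, edgeR adjusted P = 0.185). Cebpb, a bZIP transcription factor, was the other gene of this list without overlap, with 3.44 to 4.28 CPM in the control and 4.69 to 9.28 CPM in the morphine group (log2 fold change 0.83, standard error 0.21, edgeR adjusted P = 0.139). The zinc finger gene Klf6 had 89.8 ± 14.4 CPM in the control and 62.7 ± 12.3 CPM in the morphine group (log2 fold change -0.52, edgeR adjusted P = 0.202), and Klf4 had 15 to 45 counts per control and 11 to 17 per morphine library. The closest relatives of Egr1 and Nr4a1 did not pass the test either, with log2 fold changes of 0.36 for Egr2, 0.79 for Egr3, 0.75 for Egr4, 0.44 for Nr4a2 and 0.44 for Nr4a3 (edgeR adjusted P from 0.367 to 0.859).

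Of 14 activity-regulated genes that appear later than the immediate early genes, 12 had a log2 fold change above 0, with a median of 0.16, and none was called by edgeR. Of all genes, 48.6% lay below 0. The groups did not overlap for 3 of the 14, all higher with morphine, against 6.54% of all genes in either direction. Bdnf, a neurotrophin, had 10.6, 14.7, 13.8 and 13.7 CPM in control replicates 1, 2, 5 and 6 and 24.3, 21.8, 17.5 and 27.3 CPM in morphine replicates 3, 4, 7 and 8 (log2 fold change 0.79, standard error 0.15, edgeR adjusted P = 0.0660). Ptgs2, which encodes cyclooxygenase-2, had 5, 39, 18 and 59 counts in the control and 89, 190, 104 and 217 counts in the morphine libraries (log2 fold change 2.41, standard error 0.53, edgeR adjusted P = 0.0962). Inhba, a subunit of activin, had 20 to 48 counts per control and 42 to 92 per morphine library (log2 fold change 1.10, edgeR adjusted P = 0.203). Nrn1, a surface protein also known as CPG15, had 233 ± 23.7 and 284 ± 51.5 CPM and its groups overlapped (edgeR adjusted P = 0.439). Ptgs2 was lowest in control replicate 1, as the telencephalic markers were, and the part of the other cells in these differences was not tested.

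Among 23 genes upstream of the immediate early genes, such as Creb1, Srf, Mef2 factors and ERK-pathway kinases, 13 lay above and 10 below 0, and none was called by edgeR. Unadjusted P values under 0.05 were found for 2 of the 23 (8.70%), against 12.1% of all genes. Both are ribosomal S6 kinases, which phosphorylate CREB and SRF. Rps6ka2 had 88.5 ± 16.7 CPM in the control and 70.6 ± 9.55 CPM in the morphine group (edgeR adjusted P = 0.387), and Rps6ka1 had 24.8 ± 2.01 and 20.8 ± 2.31 CPM (edgeR adjusted P = 0.406). Mef2a, a MADS-box transcription factor, had 262 ± 40.5 and 220 ± 37.4 CPM (edgeR adjusted P = 0.523). Creb1 (97.3 and 86.3 CPM) and Srf (55.2 and 56.1 CPM) did not pass the test.

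**Figure D4:**
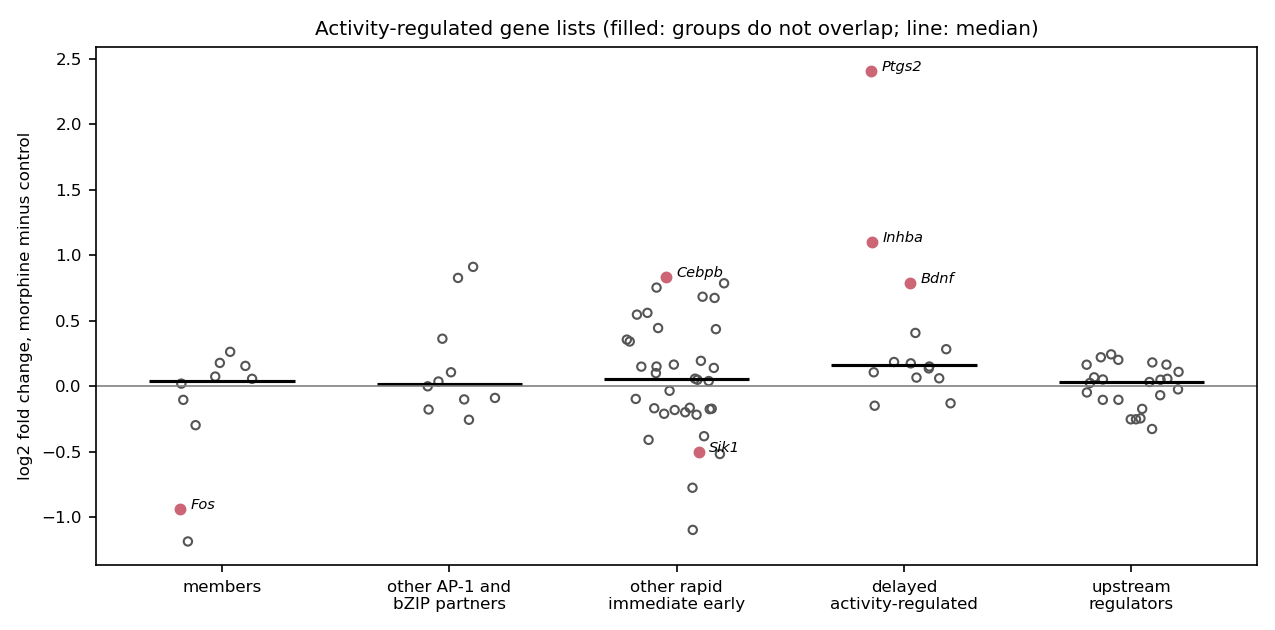
Log2 fold change of every gene of the 5 lists between the morphine and control groups (vertical axis), from edgeR with condition only. Filled points mark genes whose groups did not overlap, which are Fos, Sik1, Cebpb, Bdnf, Ptgs2 and Inhba, and the lines mark each list's median, from 0.017 to 0.16.

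The genes most like Fos were sought by Pearson's r of log2(CPM + 0.5) over the 8 libraries, among 13702 other genes whose count was 10 or more in each library. The 5 highest were Zc3h10 (r = 0.977), Fam109a (0.973), Wnt9a (0.970), Etnk2 (0.968) and Shc2 (0.966). With so many genes and 8 libraries of 2 groups, values of this size describe the match and carry no test. All 5 were lower with morphine, with log2 fold changes from -0.67 for Etnk2 to -0.21 for Zc3h10, and none of them was called by edgeR. This direction follows from how they were picked, since the groups of Fos were separate. Of the members, Npas4 was most like Fos (r = 0.825, 296th of the 13702), followed by Ier2 (0.509) and Fosb (0.393), and Jun was least like it (-0.712). Fos and Npas4 were both highest in control replicate 1 and lowest in control replicate 5 among the controls. In morphine replicate 3, Fos was the highest of its group and Npas4 the lowest.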

How the data were processed

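Libraries were grouped by the labels of the deposited samples. The authors deposited raw counts of reads, whole and not normalized, by RefSeq transcript for each library, with mm10 as the genome build per the labels. The study's methods used Salmon with tximport and DESeq2, but whether this table of whole numbers came from Salmon, and whether strand was used, is not given in the sources used here. Splitting of reads between similar transcripts could therefore not be checked. Of its 24488 rows, 1 per gene was kept, the one with the highest total, and 0 columns were left without a sample.

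TMM factors set the library sizes for CPM and for the quasi-likelihood test of edgeR 4.0.16 (glmQLFit and glmQLFTest in R 4.3.3) over all genes with a count above 0, with Benjamini-Hochberg adjustment and a threshold of 0.05. Standard errors are the log2 fold change over the root of the F statistic. Nothing says whether libraries share cages or batches, so P values measure the spread between these pools. For single genes and ratios, all 70 arrangements of the libraries gave an exact two-sided permutation test. Alternatives were DESeq2 1.42.0, limma-voom (limma 3.58.1), other factors, a filter, sums over transcripts, sex or a marker score (mean log2 CPM, prior count 2) in the model, and each library left out. The tests were tried on simulated data. Transcript lengths came from the GENCODE M21 transcripts.

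The members, gene lists and marker lists were chosen with earlier results of these data known. Genes named beyond the members are those with the lowest P value of each list, up to 4, those without overlap, a few close relatives of members chosen by name after their values were seen (Jund, the Egr and Nr4a genes, Creb1 and Srf), and the 5 most like Fos. One gene that this rule names is not reported here. Figures were drawn with matplotlib 3.10.9.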

Additional observations from a re-analysis of the deposited data

Results flagged for a closer look

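In control replicate 5, Fos had 74.1 CPM, apart from the 94.1 to 96.6 CPM of the other 3 control libraries. This is the library labelled female that holds counts of Y-linked genes. It was also the lowest control library for Npas4, Junb and Ier2 and the highest for Jun. In morphine replicate 3, Ier2 had 9.22 CPM, apart from the 6.35 to 6.60 CPM of the other 3 morphine libraries, and there Fos was the highest of its group and 7 other members the lowest. Both libraries were found by the gap of an extreme value to its neighbour as a share of the range of the 4 libraries, which chance exceeds in about 1 in 20 groups, and 20 groups were looked at.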

How the results depend on the processing

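The number of genes called between morphine and control was 37, and it was 14 with filterByExpr, 502 with DESeq2, 23 with limma-voom, 110 with sex in the model, 22 with sums over transcripts, 1 with the telencephalic and 0 with the choroid plexus marker score (675 genes with an unadjusted P value under 0.05), and 0 to 77 without 1 library. It was 0 without morphine replicate 4 or 8 (1696 and 1664 genes unadjusted). Fos kept its direction in all 17 alternatives and was called in 11. Its log2 fold change was -0.92 with the telencephalic and -0.86 with the choroid plexus score, where it was not called (edgeR adjusted P = 0.783 and 1.00), and -1.04 to -0.86 without 1 library.

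Jun, Fosb and Npas4 also kept their direction in all 17. Fosb was at -1.36 with the telencephalic and -0.89 with the choroid plexus score, and without 1 library it lay between -0.53 (without morphine replicate 4) and -0.050 (without control replicate 6). The telencephalic score turned Fosl2 (-1.26), Junb (-0.52), Egr1 (-0.73), Arc (-1.70), Nr4a1 (-0.88) and Ier2 (0.075), and the choroid plexus score turned them too (-0.89, -0.22, -0.25, -1.01, -0.69 and 0.065). Junb was at -0.0071 with upper-quartile factors and -0.040 with limma-voom. Without 1 library, the range was -0.20 to 0.40 for Fosl2, -0.27 to 0.19 for Junb, -0.18 to 0.24 for Egr1, -0.16 to 0.79 for Arc and -0.37 to 0.33 for Nr4a1, so the sign of these 5 is not settled by the data. The cause was not tested.

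The ratio of Fos to Npas4 was -0.095 with 5 CPM added and -0.057 to 0.40 without 1 library. Between the sexes, 1 gene was called, 0 with filterByExpr (587 unadjusted by edgeR without it), 21 with DESeq2 and 0 to 5 without 1 library, and for the interaction 0, with 4 from DESeq2. No paired analysis was possible because the groups share no replicate number.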
